A study of Capra hircus with 12 samples.

Results

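The genes for 7 matrix metalloproteinases (MMPs) and 3 of their tissue inhibitors (TIMPs) were followed in cultured cells of the goat temporomandibular joint (TMJ). They were MMP1, MMP2, MMP3, MMP9, MMP13, MMP14, MMP16, TIMP1, TIMP2 and TIMP3. The genes were taken by symbol, and all 10 were found among the 28910 rows of each count table. The cells came from the condylar fibrocartilage of young female goats obtained from abattoirs, were freed with collagenase and were grown in culture before use. The RNA of superficial-layer cells (SLC) and of middle-layer cartilage cells (MLC) was sequenced in 4 groups of 3 libraries. All 12 libraries came from cells exposed for an hour to IL-1β, a cytokine that raises matrix breakdown in joints. In 6 of them, labelled IL-1β + LOXL2, the cells were said to have been transduced overnight beforehand with an adenovirus carrying LOXL2, a lysyl oxidase that crosslinks collagen and elastin. Cells without IL-1β were not analysed here, so the response of these genes to IL-1β itself was not measured. The culture methods do not say whether the cells labelled IL-1β alone received an empty virus, so effects of LOXL2 and of the virus cannot be told apart. Nothing says that replicates came from separate goats or cultures, and the p-values then measure only the spread between these libraries, which may be technical.

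MMPs are zinc endopeptidases that are made as latent enzymes and that together can cut nearly every protein of the extracellular matrix. The collagenases MMP1 and MMP13 open the triple helix of fibrillar collagen, the stromelysin MMP3 cuts proteoglycans and activates other MMPs, the gelatinases MMP2 and MMP9 degrade unwound collagen, and MMP14 and MMP16 sit in the cell membrane. TIMPs bind the active site of MMPs one to one, and in cartilage the ratio of protease to inhibitor is a classical measure of matrix turnover. RNA levels do not show how much of a latent enzyme was activated.

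The libraries held 14158607 to 28931652 counts, and the 10 genes together took 0.982% to 1.16% of them. The transcript of LOXL2 did not stand higher under the label that names it. Its level was 615 to 633 counts-per-million (CPM) in SLC with IL-1β and 458 to 561 CPM in SLC with the LOXL2 label. In MLC it was 767 to 876 CPM and 742 to 815 CPM, and the groups overlapped. The gene's own count thus did not bear out the label, and every direction given below for LOXL2 rests on the label alone. The species and sequence of the LOXL2 in the virus are not given in the sources used here. It is thus not known whether its transcripts would count to the goat gene, and these counts cannot show whether the transduction worked. The difference in mean log2 CPM between the longest 25% and the shortest 25% of genes by genomic span was 1.09 to 1.32 in the 6 libraries with IL-1β alone. In the libraries labelled IL-1β + LOXL2 it was 1.06 in the first SLC replicate and 0.966 in the first MLC replicate, and 0.321 to 0.657 in the other 4. Among cell type markers, summed levels of endothelial genes were at most 5.23 CPM and of osteoblast genes at most 4.45 CPM. The 8 fibrocartilage surface and fibroblast genes summed to 63902 to 77850 CPM, most of it from COL1A1, COL1A2 and COL3A1. The 5 mural and smooth muscle genes summed to 1111 to 2403 CPM. The 6 osteoclast genes summed to 1736 to 3338 CPM, nearly all of it from CTSK. The 7 leukocyte genes summed to 55.6 to 141 CPM, nearly all of it from CD14 (1034 to 2219 counts in a library) and CD68 (62 to 351 counts), while PTPRC had at most 2 counts in any library. The 9 chondrocyte genes summed to 749 to 1430 CPM in SLC, most of it from COL11A1, and ACAN, COMP and SOX9 were also detected there, while COL2A1 and COL9A1 had 0 or 1 count in every SLC library.

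MMP1, the interstitial collagenase, lies on chromosome 15 (76620137 to 76629210 of the goat assembly ARS1.2). Its level in SLC was 5.16, 6.61 and 6.61 CPM with IL-1β and 2.51, 8.30 and 5.93 CPM with the LOXL2 label. In MLC it was 38.3, 79.4 and 50.0 CPM with IL-1β and 42.3, 46.8 and 40.8 CPM with the LOXL2 label. Every MLC library stood above every SLC library, and the treatment groups overlapped within each layer.

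MMP13, the collagenase that prefers type II collagen, lies on the same chromosome (76763878 to 76775844) and had few counts. Its SLC libraries held 23, 35 and 20 counts with IL-1β (1.19, 1.55 and 0.987 CPM) and 7, 77 and 53 counts with the LOXL2 label (0.319, 2.85 and 2.42 CPM). The MLC libraries with IL-1β held 63, 278 and 104 counts, which is 4.44, 18.2 and 6.92 CPM. Those with the LOXL2 label held 145, 119 and 91 counts, which is 7.48, 8.51 and 4.93 CPM. One MLC library with IL-1β, replicate 2, stood far above the rest, and the SLC libraries labelled IL-1β + LOXL2 spanned both sides of their controls.

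MMP3, the stromelysin, lies between these collagenases (chromosome 15, 76656465 to 76662892). Its SLC level was 6.30, 5.59 and 8.10 CPM with IL-1β and 2.69, 10.1 and 6.66 CPM with the LOXL2 label. Its MLC level was 188, 322 and 218 CPM with IL-1β and 192, 214 and 202 CPM with the LOXL2 label. The lowest MLC library held 2670 counts of MMP3 and the highest SLC library held 272.

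MMP2, the constitutive gelatinase (chromosome 18, 25127061 to 25154299), had 86173 to 208143 counts in a library, the most of the 10. Its level ranged from 7194 to 7540 CPM in SLC with IL-1β and from 6715 to 7711 CPM in SLC with the LOXL2 label. In MLC it ranged from 6070 to 7128 CPM and from 6113 to 6605 CPM. MMP9, the other gelatinase (chromosome 13, 74256206 to 74263438), had 1 to 9 counts in each library and 50 counts in all 12 together. It was not tested in any comparison of expressed genes, and a difference in MMP9 was not detectable at this depth.

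MMP14, the membrane protease that activates latent MMP2 (chromosome 10, 79446180 to 79454624), ranged from 894 to 1256 CPM over all 12 libraries, and all 4 groups overlapped. MMP16, a second membrane-type MMP, has by far the longest gene of the 10 (chromosome 14, 7457318 to 7839869, a span of 382552 bases). Its SLC level was 14.8, 16.0 and 14.4 CPM with IL-1β and 13.4, 9.30 and 10.9 CPM with the LOXL2 label, without overlap. Its MLC level was 11.4, 10.9 and 11.8 CPM and then 11.0, 9.01 and 7.75 CPM, with 1 library of the second group inside the range of the first.

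TIMP1, the inducible soluble inhibitor, has the shortest gene of the 10 (chromosome X, 20056638 to 20060292, a span of 3655 bases). Its SLC level was 545, 583 and 685 CPM with IL-1β and 684, 1333 and 1031 CPM with the LOXL2 label. The lowest library of the second group lay just under the highest of the first. Its MLC level was 781, 839 and 771 CPM with IL-1β and 929, 1302 and 1411 CPM with the LOXL2 label, without overlap.

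TIMP2, which also takes part in the activation of MMP2 by MMP14 (chromosome 19, 52668335 to 52723664), was the most even of the 10 genes among the libraries with IL-1β alone. It stood at 1252, 1257 and 1255 CPM in SLC and at 1199, 1215 and 1189 CPM in MLC. With the LOXL2 label it was 1263, 1683 and 1510 CPM in SLC and 1287, 1431 and 1511 CPM in MLC, above the IL-1β libraries of the same layer each time. TIMP3, which is held in the matrix and also inhibits aggrecanases (chromosome 5, 70075729 to 70134562), was 566, 617 and 597 CPM in SLC with IL-1β. The SLC libraries with the LOXL2 label spread from 370 to 718 CPM. In MLC it ranged from 410 to 528 CPM with IL-1β and from 447 to 489 CPM with the LOXL2 label.

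**Figure D1:**
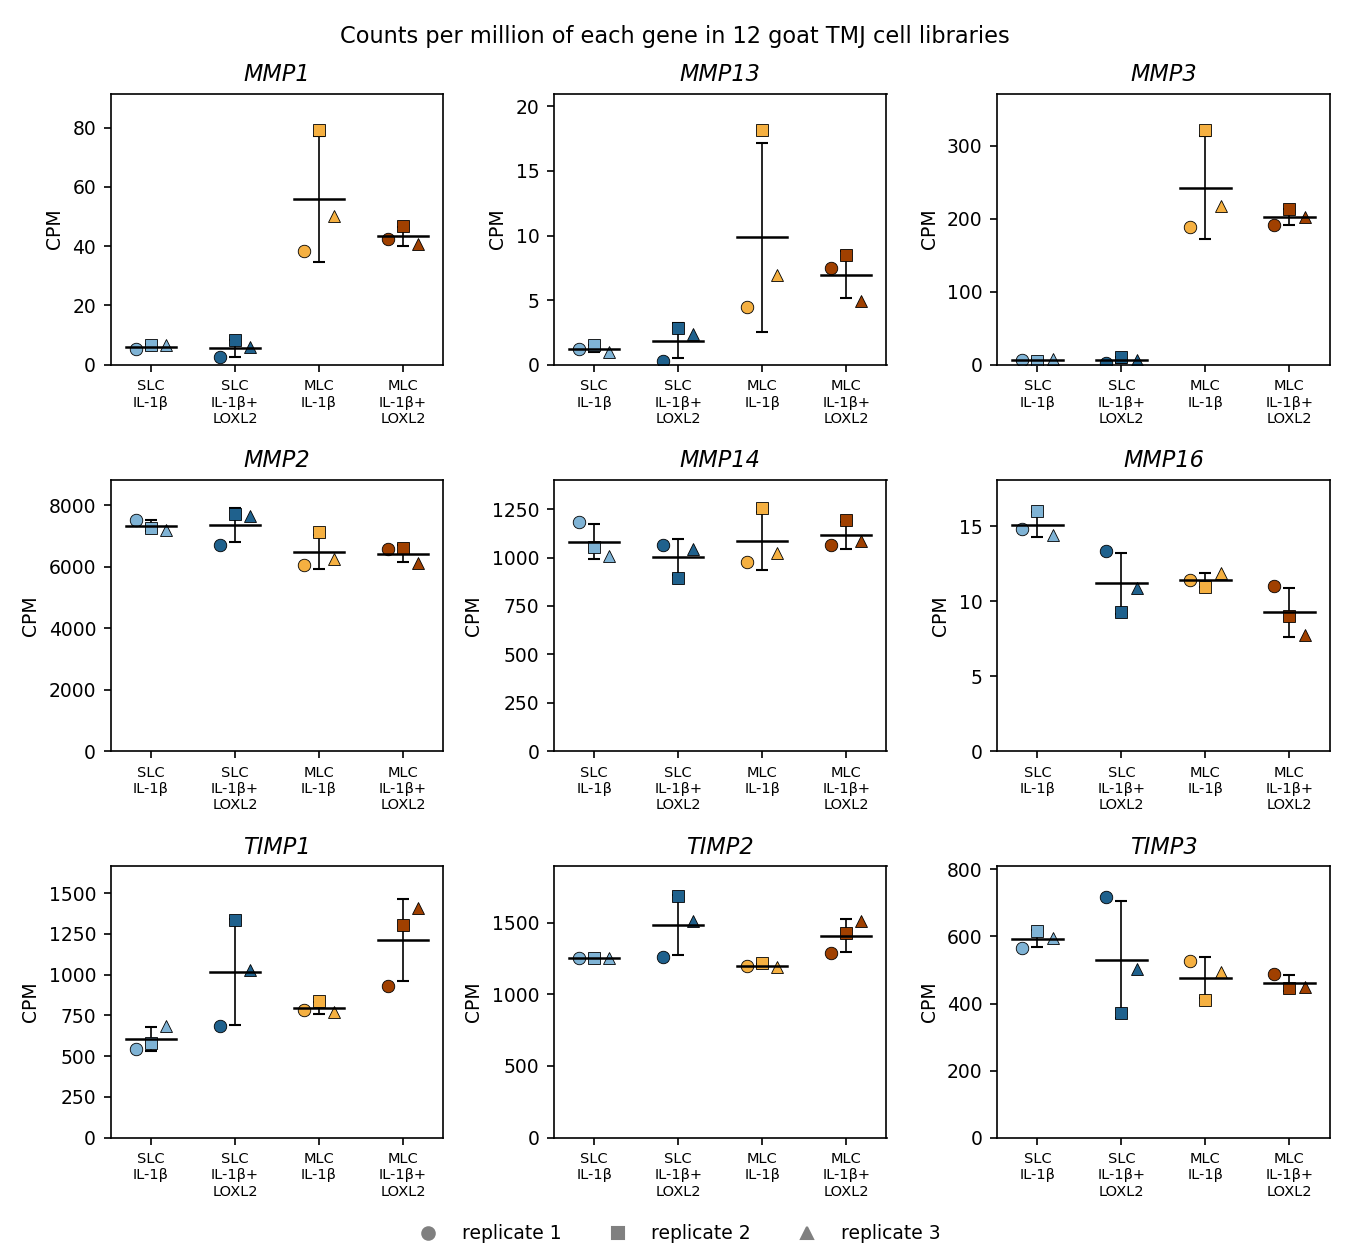
Level of 9 genes (vertical axis, CPM, from 0) in each of the 12 libraries, by layer and label (horizontal axis), with the group mean as a line, the SD of 3 libraries as a bar and the replicate number as the marker's shape. MMP1, MMP13 and MMP3 stand higher in every MLC library than in any SLC library, and the TIMP1 libraries labelled IL-1β + LOXL2 reach 1333 CPM in SLC and 1411 CPM in MLC.

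The first comparison asked which of these genes differed between the layers of the joint in cells given IL-1β alone. The collagenases and the stromelysin were many-fold higher in MLC, MMP16 and TIMP3 were slightly lower, and TIMP1 was slightly higher. Mean MMP3 was 243 ± 70.2 CPM (SD, n = 3) in MLC and 6.66 ± 1.29 CPM (SD, n = 3) in SLC, a ratio of 36.4. Mean MMP1 was 55.9 ± 21.1 CPM (SD, n = 3) in MLC and 6.13 ± 0.835 CPM (SD, n = 3) in SLC, a ratio of 9.12. Mean MMP13 was 9.85 ± 7.33 CPM (SD, n = 3) and 1.24 ± 0.287 CPM (SD, n = 3), a ratio of 7.93 that rests on 20 to 35 counts in each SLC library. Without replicate 2 of MLC the log2 difference of MMP13 was 2.18 (adjusted p = 0.00153 by edgeR), against 2.98 with all libraries.

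By edgeR's quasi-likelihood test, adjusted by Benjamini-Hochberg over all genes tested, 6 of the 9 tested members passed a threshold of 0.05 (4 higher and 2 lower in MLC). Over all 13965 genes tested, 46.9% passed, 24.2% higher and 22.7% lower, so passing was common. The log2 difference was 5.19 for MMP3 (standard error 0.19, adjusted p = 8.39e-11), 3.19 for MMP1 (standard error 0.22, adjusted p = 3.74e-08) and 2.98 for MMP13 (standard error 0.44, adjusted p = 7.22e-05). These 3 differences lay at the 99.7, 99.3 and 99.2 percentiles of all genes. The other 3 were 0.40 for TIMP1 (adjusted p = 0.000822), -0.40 for MMP16 (adjusted p = 0.00428) and -0.31 for TIMP3 (adjusted p = 0.00628). These 3 lost the threshold when all 12 libraries shared one estimate of the spread, with adjusted p-values of 0.196, 0.0746 and 0.250. MMP2 had a log2 difference of -0.17 (standard error 0.08, adjusted p = 0.0715), and MMP14 (0.0073, standard error 0.09) and TIMP2 (-0.06, standard error 0.06) lay nearer to 0. MMP2 passed as lower in MLC without a filter on low counts (adjusted p = 0.0118 by edgeR), by DESeq2's Wald test (adjusted p = 0.0252), without MLC replicate 2 (-0.25, adjusted p = 0.00980) and with the gene-span trend removed (adjusted p = 0.0381).

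Groups did not overlap for 8 of the 9 tested members, 4 higher and 4 lower in MLC, against 55.8% of all genes tested (28.1% higher and 27.8% lower). The exception was MMP14. A two-sided exact permutation test of 3 against 3 libraries cannot give a p under 0.1. The layers stand in separate tables, so a difference of layer and one of batch cannot be told apart, and in bulk RNA fewer cells of a type cannot be told apart from less RNA per cell. The chondrocyte markers moved with the same comparison. Of 9 in the tables, 8 were tested and 6 passed, all higher in MLC, against 24.2% of all genes. COL2A1 and COL9A1 are among the 6 but were tested only through their MLC counts, so they could pass only as higher there. ACAN, the core protein of aggrecan, had a log2 difference of 3.08 (adjusted p = 2.77e-12) and SOX9, the main transcription factor of chondrocytes, one of 2.04 (adjusted p = 1.59e-10). COL2A1, the main collagen of cartilage, had 0 counts in each SLC library with IL-1β and 159 to 295 counts in each MLC library. The summed level of the markers was 1306 to 1430 CPM in SLC and 1769 to 1918 CPM in MLC. That of mural and smooth muscle markers was 1846 to 2243 CPM in SLC and 1111 to 1171 CPM in MLC with IL-1β. Of the 4 tested, 3 passed as lower in MLC, against 22.7% of all genes. Of 8 fibrocartilage surface and fibroblast markers, 4 passed as higher in MLC (COL3A1, DCN, LUM and PRG4), against 24.2% of all genes. COL1A2 and THY1 passed as lower (2 of the 8, against 22.7%). The part of these cell type markers in the difference of the MMP genes was not tested. The leukocyte markers PTPRC, ITGAM and TYROBP were at 0 in all 3 MLC libraries with IL-1β, and CD14 was higher there than in SLC (log2 difference 0.49, adjusted p = 0.00397).

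The same layer comparison was made among the libraries labelled IL-1β + LOXL2. Mean MMP3 was 203 ± 10.8 CPM (SD, n = 3) in MLC and 6.47 ± 3.70 CPM (SD, n = 3) in SLC, a ratio of 31.3. Mean MMP1 was 43.3 ± 3.09 CPM and 5.58 ± 2.91 CPM (SD, n = 3 each), a ratio of 7.77. Both passed edgeR's test, with log2 differences of 4.98 (standard error 0.42, adjusted p = 0.000479) and 2.97 (standard error 0.36, adjusted p = 0.00173). They were the only 2 of 9 members to do so, where 16.1% of 14085 genes passed (9.27% higher and 6.83% lower). MMP13 had a log2 difference of 1.91 (standard error 0.59, adjusted p = 0.0700), without overlap of the groups. Groups did not overlap for 4 members (MMP1, MMP3, MMP13 and, lower in MLC, MMP2), against 35% of all genes (18% higher and 17% lower).

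Replicate numbers were taken to pair the libraries in this one comparison. This rests on correlations in these same data and not on a label. Same-numbered libraries had correlations of 0.605, 0.206 and 0.168, while SLC replicate 2 and MLC replicate 3 had 0.450. With the number as a block 3887 genes (27.6%) passed instead of 2268. MMP13 then had a log2 difference of 2.03 (adjusted p = 0.0132 by edgeR), and no other member crossed the threshold. Without the first SLC replicate labelled IL-1β + LOXL2 the difference in MMP13 was 1.42 (adjusted p = 0.00434 by edgeR) and 4679 genes passed. Without the second such SLC replicate it was 2.35, also past the threshold, and 2016 genes passed. These were the 2 of 6 fits with a library left out in which MMP13 passed. In both treatments the layer difference had the same members at its top, MMP3 first, then MMP1, then MMP13.

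**Figure D2:**
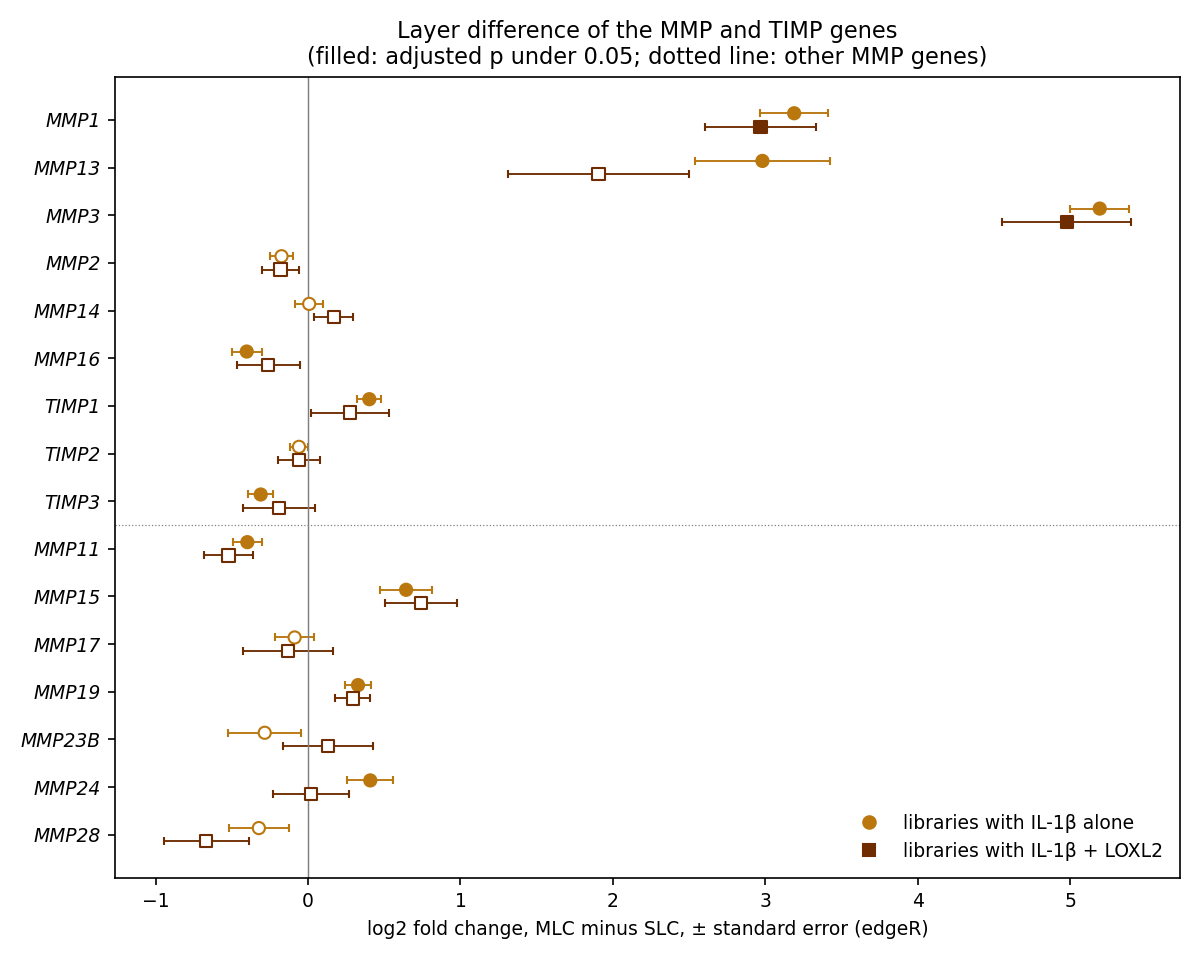
Layer difference of each gene (horizontal axis, log2 fold change of MLC over SLC with its standard error from edgeR) among the libraries with IL-1β alone (circles) and those labelled IL-1β + LOXL2 (squares), with filled symbols for adjusted p under 0.05. MMP3, MMP1 and MMP13 lie between 1.91 and 5.19, and the other tested members lie between -0.40 and 0.40. Below the dotted line are other MMP genes, without MMP12, whose SLC libraries held 0 to 4 counts.

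MMP1, MMP3, MMP12 and MMP13 lie within one stretch of chromosome 15 in the order MMP1, MMP3, MMP12, MMP13. MMP12, the macrophage elastase (76673281 to 76683556), is not among the 10 genes. It held 0 to 4 counts in each SLC library and 8 to 32 in each MLC library. It entered the tests between layers only through its MLC counts, so its passing them adds nothing to these counts. No fold or p-value is given, since most of its SLC libraries were at 0. Of the further family members on this chromosome, MMP7 and MMP8 were at 0 counts in all 12 libraries, MMP20 had at most 5 counts and MMP27 at most 4.

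Within a library, the balance of MMP3 to MMP1 differed by layer and overlapped between labels within each layer. The log2 ratio of their counts was 0.11 ± 0.31 (SD, n = 3) in SLC and 2.15 ± 0.14 (SD, n = 3) in MLC with IL-1β. With the LOXL2 label it was 0.18 ± 0.09 and 2.23 ± 0.07 (SD, n = 3 each). The log2 ratio of MMP13 to MMP1 overlapped between the layers, with means of -2.32 and -2.70 with IL-1β. These ratios are counts per gene and not per length, since transcript lengths were not used here.

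The comparison of the LOXL2 label within SLC asked whether LOXL2 lowers proteases or raises inhibitors in superficial cells under IL-1β. None of the 9 tested members passed, as none of the 14103 genes did (0%). At an unadjusted p under 0.05, 6108 genes passed by edgeR, and 4107 (31.9%) passed after adjustment by DESeq2's Wald test. MMP1 (log2 fold change -0.15, standard error 0.38), MMP3 (-0.05, standard error 0.42) and MMP13 (0.57, standard error 0.64) had errors as large as or larger than their changes. MMP2 (-0.01, standard error 0.12) and MMP14 (-0.13, standard error 0.12) were measured more tightly. MMP16 had the largest decrease, -0.45 (standard error 0.16, adjusted p = 0.0853), and TIMP1 the largest increase, 0.73 (standard error 0.23, adjusted p = 0.0728). DESeq2 put TIMP1 past the threshold (adjusted p = 0.0165). TIMP2 had a change of 0.23 (adjusted p = 0.201) and TIMP3 one of -0.17 (adjusted p = 0.570). Groups did not overlap for TIMP2 (higher) and MMP16 (lower), against 49% of all genes (25.5% higher and 23.5% lower).

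The edgeR calls in SLC depended on the first replicate labelled IL-1β + LOXL2 and on the fit. Of the fits that left out 1 library, only the one without that replicate called any gene. With it kept, the fit of 12 libraries called 5965 genes (41%), MMP16 and TIMP1 among them. The first replicate was the lowest of its group for 6 of the 9 tested members (MMP1, MMP13, MMP3, MMP2, TIMP1 and TIMP2). The second replicate was the highest for the same 6, and the first was the highest for MMP14, MMP16 and TIMP3. Without it, 8849 genes passed (61.7%, with 31% higher and 30.8% lower) and 5 of the 9 members did. MMP13 (1.05, adjusted p = 0.00611), TIMP1 (0.94, adjusted p = 0.000128) and TIMP2 (0.32, adjusted p = 0.0154) were then higher and MMP16 (-0.61, adjusted p = 0.00189) and TIMP3 (-0.47, adjusted p = 0.00766) lower, each by edgeR. These 5 of 9 stood near that background. MMP1 and MMP3 then had positive changes of 0.19 and 0.31, neither past the threshold.

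In MLC, TIMP1 was higher with the LOXL2 label and none of the MMPs among the 10 genes passed the test. Mean TIMP1 was 797 ± 36.8 CPM (SD, n = 3) with IL-1β and 1214 ± 253 CPM (SD, n = 3) with the label, a ratio of 1.52. On the log2 scale it rose by 0.61 with a standard error of 0.13 (adjusted p = 0.0199 by edgeR), at the 97.8 percentile of all genes. Cell type markers went in both directions in the same comparison, where 9.81% of all genes passed as higher and 11.8% as lower. The summed level of mural and smooth muscle markers was 1111 to 1171 CPM with IL-1β and 1328 to 1637 CPM with the label. Most of it came from ACTA2. Of the 4 tested, 2 passed by edgeR, both higher, ACTA2 (0.54, adjusted p = 0.0193) and CNN1 (0.52, adjusted p = 0.0229). MYH11 (-0.03) and PDGFRB (-0.19) did not pass. Of 8 fibroblast markers 1 passed as higher, THY1 (0.40, adjusted p = 0.0214), and 1 as lower, PDGFRA (-0.46, adjusted p = 0.0267). Of 8 tested chondrocyte markers 1 passed as higher, COMP (0.37, adjusted p = 0.0283). The part of these markers in the rise of TIMP1 was not tested. DESeq2's Wald test also put it past the threshold (adjusted p = 0.000416), with 27.2% of genes. It was the one called member of 9, where 21.6% of 13664 genes passed (9.81% higher and 11.8% lower). TIMP2 had a change of 0.23 (standard error 0.09, adjusted p = 0.0740), and TIMP1 and TIMP2 were the members whose groups did not overlap, both higher, against 41.5% of all genes in either direction and 21% higher. MMP1 (-0.37, standard error 0.20, adjusted p = 0.183), MMP13 (-0.52, standard error 0.39, adjusted p = 0.351) and MMP3 (-0.26, standard error 0.16, adjusted p = 0.228) had negative changes. Replicate 2 with IL-1β was the highest library of its group for all 3 and for 7 of the 9 members. MMP16 had a change of -0.30 (adjusted p = 0.160), and MMP2 (-0.02), MMP14 (0.04) and TIMP3 (-0.05) had standard errors of 0.09 to 0.10.

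The call of TIMP1 in MLC held in 3 of the 6 fits that left out a library. It was lost without IL-1β replicate 1 (adjusted p = 0.0780), IL-1β replicate 3 (adjusted p = 0.0915) or replicate 2 labelled IL-1β + LOXL2 (adjusted p = 0.108), and in the fit of all 12 libraries (adjusted p = 0.174). Its log2 fold change stayed between 0.48 and 0.77. Without the first replicate labelled IL-1β + LOXL2, 6653 genes passed (48.1%, with 23.7% higher and 24.4% lower), with TIMP1 (0.77, adjusted p = 1.83e-06), TIMP2 (0.29, adjusted p = 0.00223) and MMP16 (-0.45, adjusted p = 0.0174) among them.

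Fold changes with the LOXL2 label ran with the genomic span of genes, which includes introns. Across genes, which are not independent, the Spearman correlation was -0.49 in each layer. The shortest member, TIMP1, had the largest increase and the longest, MMP16, the largest decrease in SLC. With each library's span trend removed, the change in MMP16 was -0.00064 in SLC and -0.0018 in MLC. TIMP1 was 0.40 in both layers and past the threshold in MLC (adjusted p = 0.0248 by edgeR). TIMP2 was 0.51 in SLC (adjusted p = 0.0796) and 0.42 in MLC, there past the threshold (adjusted p = 0.0226). The layer differences with IL-1β alone had a Spearman correlation with span of -0.12, and those with the LOXL2 label one of 0.07.

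**Figure D3:**
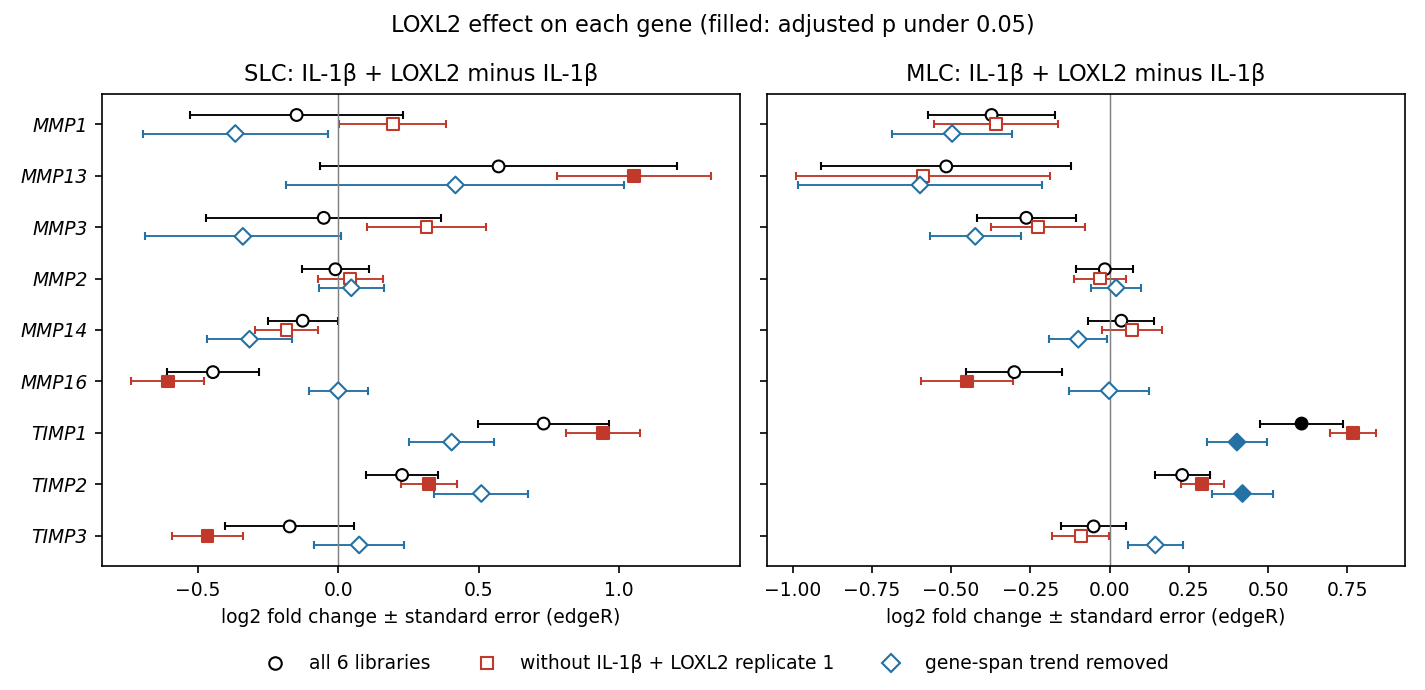
Change of each gene with the LOXL2 label (horizontal axis, log2 fold change with its standard error from edgeR) in SLC (left) and MLC (right), for all 6 libraries (circles), without the first replicate labelled IL-1β + LOXL2 (squares) and with the gene-span trend removed (diamonds), with filled symbols for adjusted p under 0.05. With all libraries TIMP1 in MLC is the one filled circle, and MMP16 moves to about 0 once the span trend is removed.

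Whether the change with the LOXL2 label differed between layers was tested as an interaction over all 12 libraries. No member passed, and none of 14534 genes did (0%) by edgeR, with 328 at an unadjusted p under 0.05. DESeq2 also called 0, with 334 at an unadjusted p under 0.05. The largest difference among the members was that of MMP13, -1.10 (standard error 0.86, adjusted p = 0.959), and the others lay between -0.24 and 0.15. TIMP1 had a difference of -0.14 (standard error 0.30). Across genes, the interaction had a Spearman correlation with genomic span of 0.33. The standard errors of MMP1 and MMP3 were both 0.47, and differences well above that size would also have gone undetected.

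The number of protease counts per TIMP1 count, taken within a library, does not depend on library scaling. It was not corrected for the trend of label changes with genomic span, and TIMP1 has the shortest gene among the members. How much of the change in these ratios goes with that trend was not tested. In SLC the log2 ratio of MMP1 to TIMP1 was -6.72 to -6.46 with IL-1β and -8.09 to -7.33 with the LOXL2 label. In MLC it was -4.35 to -3.40 and then -5.11 to -4.45. The label thus went with lower ratios without overlap in both layers, by 0.99 and 0.89 on average. MMP3 to TIMP1 was lower by 0.92 and 0.81, and MMP2 to TIMP1 by 0.70 and 0.60, also without overlap. MMP13 to TIMP1 overlapped in both layers. Lower ratios to TIMP1 were common, since TIMP1 itself is in each of them. In SLC 4 of 8 tested members had them without overlap, against 42.3% of all genes, and in MLC 6 of 8, against 63.2%. Against TIMP2, the ratio of MMP2 was lower without overlap in SLC (by 0.23) and overlapped in MLC, and the ratio of MMP14 overlapped in both layers.

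Between layers, the ratios of MMP3, MMP1 and MMP13 to TIMP1 were all higher in MLC. With IL-1β the mean log2 differences were 4.76, 2.73 and 2.35, and with the LOXL2 label 4.88, 2.83 and 2.10, without overlap in each case. Ratios to TIMP1 higher in MLC without overlap were found for 8.35% of all genes with IL-1β and 5.72% with the label, and lower ones for 59% and 24%. MMP2 to TIMP1 was lower in MLC, by 0.59 without overlap with IL-1β and by 0.48 with overlap under the label.

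**Figure D4:**
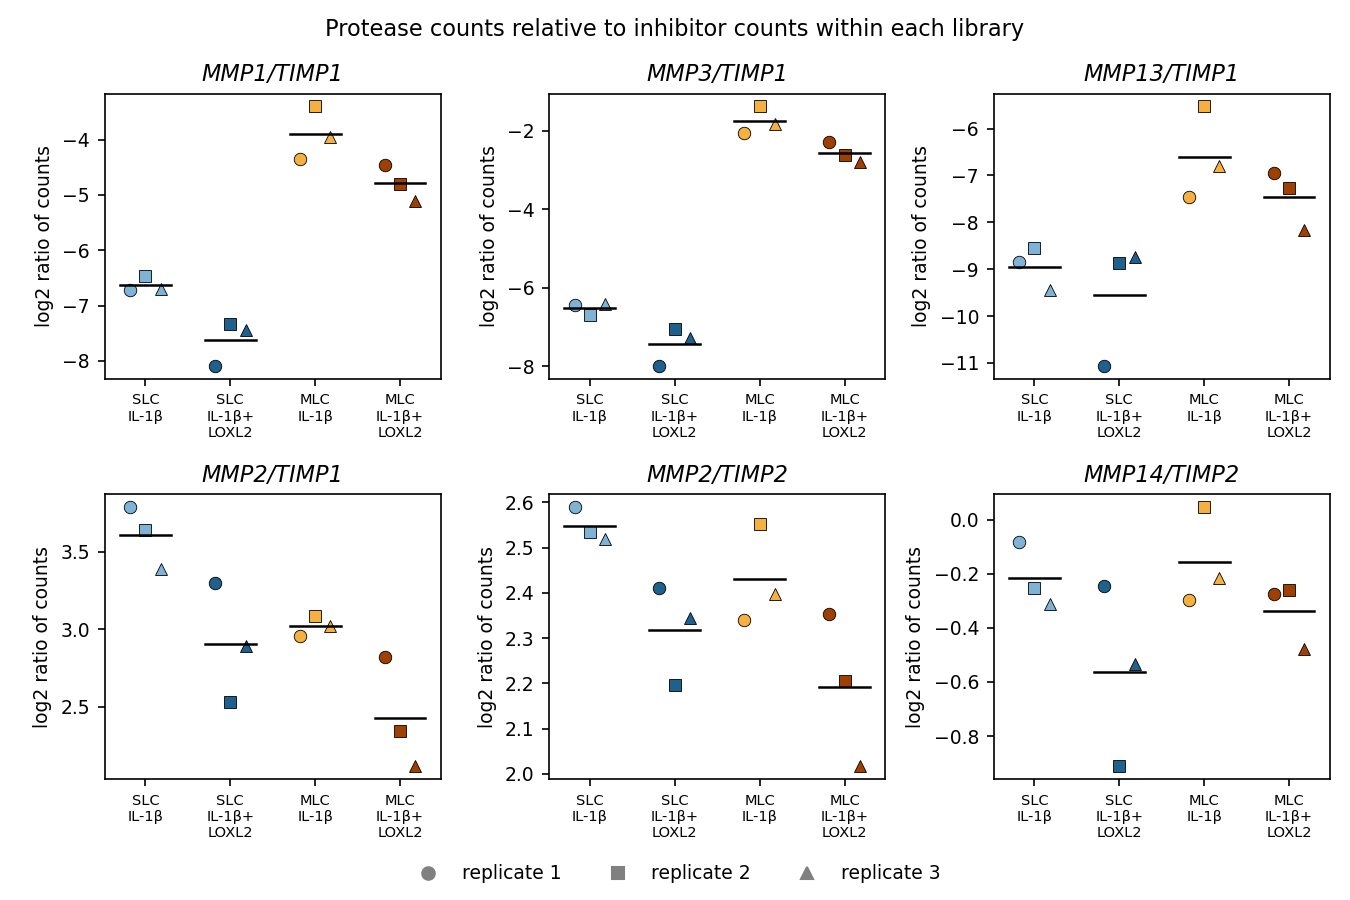
Log2 ratio of the counts of a protease to those of an inhibitor in each library (vertical axis, not starting at 0) by layer and label (horizontal axis), with the group mean as a line and the replicate number as the marker's shape. The ratios of MMP1 and MMP3 to TIMP1 are lower with the LOXL2 label without overlap in each layer, and the MLC means with the label (-4.79 and -2.56) stay above the SLC means with IL-1β alone (-6.63 and -6.51). The ratios are not corrected for the trend with genomic span.

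Other genes of the MMP system were read from lists. The changes given for them with the LOXL2 label were not corrected for the trend with genomic span. Of 17 other family members, 13 were in the tables and 7 or 8 were tested. With the LOXL2 label, 0 of 7 passed in SLC and 2 of 8 in MLC, where 21.6% of all genes did. MMP11, a secreted stromelysin, was 19.2 ± 2.31 CPM in MLC with IL-1β and 28.0 ± 5.19 CPM with the label (SD, n = 3 each), a log2 change of 0.54 (adjusted p = 0.0288 by edgeR). MMP23B had 26 to 58 counts and 87 to 121 counts, a change of 1.06 (adjusted p = 0.0229). Between the layers with IL-1β alone, 5 of 8 passed, against 46.9% of all genes. MMP15 (0.64), MMP19 (0.33), MMP24 (0.41) and MMP12 were higher in MLC and MMP11 lower (-0.40). MMP12 was tested only through its MLC counts, so it could pass only as higher there. The median over the 8 was 0.12, against -0.0069 over all genes. With the LOXL2 label the median was 0.40 in SLC and 0.18 in MLC, against 0.01 and 0.0079 over all genes.

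Of 10 other inhibitors and clearance genes, 8 were in the tables and 7 were tested. None passed with the LOXL2 label in SLC and 3 did in MLC, against 21.6% of all genes. LRP1, the receptor through which cells take up several MMPs and MMP-TIMP complexes, was 4431 ± 260 CPM with IL-1β and 2907 ± 571 CPM with the label in MLC (SD, n = 3 each), a log2 change of -0.61 (adjusted p = 0.0194). In SLC it was 6001 ± 634 and 3148 ± 916 CPM (SD, n = 3 each), a change of -0.94 with an adjusted p of 0.0706 by edgeR. THBS1, a matrix glycoprotein, fell by 0.44 on the log2 scale in MLC (adjusted p = 0.0371), and PCOLCE, the enhancer of procollagen C-proteinase, rose by 0.38 (adjusted p = 0.0244). Between the layers with IL-1β alone, 2 were higher and 3 lower in MLC, against 46.9% of all genes in either direction. RECK, a membrane-anchored inhibitor of MMPs, was lower in MLC than in SLC with IL-1β (log2 difference -0.84, adjusted p = 3.63e-07), as were LRP1 (-0.43, adjusted p = 0.000600) and THBS1 (-0.48, adjusted p = 0.00130). SPOCK1 was higher in MLC (1.45, adjusted p = 7.89e-07), as was THBS2 (1.02, adjusted p = 7.77e-09). The median with the label was -0.61 in SLC and -0.34 in MLC. TIMP4, the fourth tissue inhibitor, had at most 4 counts in any library.

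Among 20 activators of latent MMPs and their inhibitors, 15 were tested. With the LOXL2 label none passed in SLC and 1 in MLC (against 21.6% of all genes), BSG, a cell surface inducer of MMPs, with a log2 change of 0.42 (adjusted p = 0.0229). Between the layers with IL-1β alone, 7 were higher and 3 lower in MLC, against 24.2% and 22.7% of all genes. The most abundant of the list were CTSK (-0.37), CTSB (0.21), BSG (0.31) and SERPINE2 (0.90), all past the threshold by edgeR. The list's median was 0.16. CTSK and CTSB are cathepsins and SERPINE2 is a serpin that blocks serine proteases.

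Of 19 regulators of MMP expression, 17 were tested, and 1 rose and 5 fell with the LOXL2 label in MLC, against 9.81% and 11.8% of all genes, while none passed in SLC. EPAS1, a hypoxia-inducible transcription factor, fell by 0.73 on the log2 scale in MLC (adjusted p = 0.0219). FOSL2, an AP-1 subunit, fell by 0.45 (adjusted p = 0.0322). SDC4 (0.06) and CEBPB (0.05), which with these are the 4 most abundant of the list, did not pass. Between the layers with IL-1β alone, 5 were higher and 5 lower in MLC, against 24.2% and 22.7% of all genes, with a median of 0.05.

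Of 14 substrate genes, 11 were tested in SLC, where none passed with the LOXL2 label, and 13 in MLC, where 1 rose and 3 fell, against 9.81% and 11.8% of all genes. FN1, fibronectin, fell by 0.54 on the log2 scale in MLC (adjusted p = 0.0229). COL1A1 (0.12), COL1A2 (0.0043) and COL3A1 (-0.13) did not pass. Between the layers with IL-1β alone, 8 were higher and 3 lower in MLC, against 24.2% and 22.7% of all genes. COL3A1 (0.70) and FN1 (0.83) were higher and COL1A2 (-0.34) lower, and the median was 0.70. Among the libraries with the LOXL2 label 8 were higher in MLC and none lower, against 9.27% and 6.83% of all genes, and the median was 1.00. COL2A1 and COL9A1 are among the 8 in both comparisons of layers. They were tested there only through their MLC counts and could pass only as higher. This list shares ACAN, COL2A1, COL9A1, COL11A1 and COMP with the chondrocyte markers.

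Among 14533 other genes, those whose log2 levels ran closest to a member over the 12 libraries were sought for MMP1, MMP3 and MMP13, after centring each gene on its own mean. This is a description, and the points share libraries and the contrast of layers. The measure was the root mean square difference of log2 CPM. HOXA5 was closest to MMP3 (0.35), followed by HOXC10 (0.50) and HOXC9 (0.54), against a root mean square deviation of 2.61 for MMP3 from its own mean. These 3 transcription factor genes of the HOX clusters had group means of at most 0.0673 CPM in SLC and of 2.43 to 4.82 CPM in MLC. So near 0 counts, their log2 levels in SLC were set largely by the prior count of 2. Their closeness to MMP3 thus does not show a layer difference of like size. LOC102174841 (0.29), LSAMP (0.32) and SNED1 (0.36) were closest to MMP1, against 1.61 for MMP1 itself. CD7 (0.47), TNFSF13B (0.50) and SNED1 (0.52) were closest to MMP13, against 1.46 for MMP13 itself.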

How the data were processed

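Counts as the authors deposited them were whole reads per gene without normalization, in one table per layer, made from poly-T selected RNA with HISAT2 and featureCounts (named in the submitters' notes) on the goat assembly ARS1.2. Settings for strand and for multiply mapped reads are not given in the sources used here. The labels name an RNeasy kit and the study's methods TRIzol. The tables were joined by row. Of 28910 rows, 28884 carried a RefSeq symbol of ARS1.2, the source of the coordinates.

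Tests used the quasi-likelihood functions of edgeR 4.0.16 under R 4.3.3 after filterByExpr (minimum count 10, total 15) and TMM scaling, with Benjamini-Hochberg adjustment over all genes tested and a threshold of 0.05, with groups from the labels, within each layer, between layers and, for the interaction, over 12 libraries. Standard errors were taken from the fold change and its F statistic (absolute log2 value over root F). CPM used TMM library sizes over 12 libraries. Log2 CPM in the search for similar genes used a prior count of 2. The same scripts were tested on simulated data.

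Alternatives were DESeq2 1.42.0 (size factors, Wald test), no filter, at least 10 counts per library, the replicate number as a block, one fit of 12 libraries, each library left out, and removal of each library's lowess trend (0.3) on genomic span. Leaving the first replicate labelled IL-1β + LOXL2 out of both layers was added after seeing the data. Same-numbered libraries labelled IL-1β + LOXL2 of both layers deviated together (correlations 0.605, 0.206 and 0.168), so the numbers were taken to pair them, although SLC replicate 2 correlated more with MLC replicate 3 (0.450).

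The members and lists were chosen with earlier results of these data known. All members and LOXL2 are named. List genes past the threshold may be named, and in a list with more than 6 such genes or none, the 4 most abundant. MMP12, MMP7, MMP8, MMP20, MMP27 and TIMP4 at low counts, and the markers, were named after their values were seen. Of the genes written in the lists, 11 were not found by symbol.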

Additional observations from a re-analysis of the deposited data

How the results depend on the processing

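The layer differences of MMP1 and MMP3 kept their direction and call under every alternative listed, and no member passed in the interaction under any. In SLC with the LOXL2 label, the count of genes past the threshold was 4107 by DESeq2's Wald test and 5965 in the fit of 12 libraries, and 0 to 8849 with 1 library left out. In MLC it was 0 in the fit of 12 libraries, and 0 to 6653 with 1 library left out. Between layers it was 3715 in the fit of 12 libraries with IL-1β (5410 to 6625 with 1 library left out). With the LOXL2 label it was 3887 with the replicate block, 4199 in the fit of 12 libraries, 4453 without the first such replicate of both layers and 1140 to 4679 with 1 library left out. For the interaction it was 0 to 1 with 1 library left out and 2 without both first replicates. MMP13 with the LOXL2 label crossed the threshold between layers by DESeq2 (adjusted p = 0.00646), without a filter (adjusted p = 0.0440 by edgeR), in the fit of 12 libraries (adjusted p = 0.0310) and with the span trend removed (adjusted p = 0.0457). The fit of 12 libraries also called TIMP1 (adjusted p = 0.0194) and MMP16 (adjusted p = 0.0386) in SLC.

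Members near 0 changed sign. In the fit of 12 libraries MMP2 was 0.0053 in SLC. With the span trend removed, SLC MMP2 was 0.046 and TIMP3 0.074, MLC MMP2 was 0.020, MMP14 -0.099 and TIMP3 0.14, the layer difference of MMP14 with IL-1β was -0.058 and the interaction of MMP16 -0.0023. Without a filter the layer difference of MMP14 with IL-1β was -0.0046. The interaction of TIMP2 was 0.0052 with DESeq2's size factors, 0.0023 without a filter and 0.0070 by the Wald test, which gave 0.0015 for MMP2. The layer difference of TIMP3 with the LOXL2 label was 0.062 without both first replicates.

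With 1 library left out, changes with the label in SLC ranged from -0.55 to 0.19 for MMP1, -0.52 to 0.31 for MMP3, -0.041 to 0.043 for MMP2 and -0.47 to 0.033 for TIMP3. In MLC they ranged from -0.86 to 0.28 for MMP13, -0.059 to 0.056 for MMP2, -0.031 to 0.15 for MMP14 and -0.15 to 0.031 for TIMP3. The highest MMP13 value came without IL-1β replicate 2. Layer differences ranged from -0.11 to 0.079 for MMP14 with IL-1β, and with the LOXL2 label from -0.16 to 0.031 for TIMP2 and -0.40 to 0.10 for TIMP3. Interactions ranged from -0.59 to 0.17 for MMP1, -0.60 to 0.25 for MMP3, -0.080 to 0.051 for MMP2, -0.011 to 0.29 for MMP16, -0.36 to 0.10 for TIMP1, -0.12 to 0.088 for TIMP2 and -0.089 to 0.39 for TIMP3. The lowest MMP1 and TIMP1 interactions came without the first SLC replicate of the LOXL2 label and the highest without the second. The cause was not tested.

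The block changed no other call of a member. Among the other same-numbered pairs that share a layer or a treatment, correlations ran from -0.227 to 0.124, and the block gave 0 genes in SLC, 4053 in MLC, 5816 between layers with IL-1β and 0 for the interaction. MMP9, MMP12 and MMP13 are limited by their few counts.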
